A study of Mus musculus with 4 samples.

Results

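Nfe2l2, which encodes the transcription factor NRF2, was followed in mouse bone-marrow-derived macrophages (BMDMs) together with 7 of its best known target genes and the superoxide dismutase genes Sod1 and Sod2. The targets were Slc7a11, Gclc, Gclm, Nqo1, Txnrd1, Srxn1 and Prdx1. These 10 genes were chosen by symbol from the 21878 genes of the count table, to set Sod2, a gene that NF-κB is known to induce, beside the activity of NRF2. All 10 were found and all passed the filter on low counts.

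BMDMs of C57BL/6 mice of 8 weeks were cultured for 48 h with MC38 cells, a mouse colon cancer line, and their RNA was sequenced in 4 libraries. For 2 libraries the genotype label is anti-Act1, the name of mice in which Act1, the adaptor protein of the IL-17 receptor encoded by Traf3ip2, is knocked down in macrophages. The other 2 carry the label WT, for wild type, and both groups were in coculture, so neither shows the macrophages without tumor cells. The promoter that drives the knockdown is not given in the sources used here. The paper's text gives another coculture time for the sequencing, and a range of ages that includes the labelled age. The values of the labels are printed here. The WT-labelled libraries held 64199075 and 75062945 counts, and the anti-Act1-labelled ones 61926229 and 55435063. A count of 0 allows up to 3 counts, which is 0.0395 to 0.0549 CPM (counts scaled to the size of the library) and covers counting error only.

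NRF2 is the main regulator of the response to oxidants and electrophiles. In resting cells KEAP1 holds NRF2 and hands it to a ubiquitin ligase for degradation, and when oxidants modify KEAP1, NRF2 accumulates, pairs with small MAF proteins and binds antioxidant response elements near genes of glutathione synthesis, the thioredoxin system and quinone detoxification. NRF2 is therefore regulated largely at the protein level, and the level of its own transcript does not report its activity. Superoxide dismutases turn superoxide into hydrogen peroxide, SOD1 in the cytosol and SOD2 in mitochondria, and SOD2 is a well known target of NF-κB in inflamed macrophages.

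The labels were checked first. Traf3ip2 stood at 6.98 and 7.54 CPM in the WT-labelled libraries against 9.63 and 7.84 CPM with the label anti-Act1. It was thus above the WT range in both anti-Act1-labelled libraries (log2 fold change 0.27, SE 0.12, adjusted p = 0.117 in edgeR), and the targeted transcript was not lower where the label says knockdown. Transcripts of the Y chromosome also separated the labels. Ddx3y was at 88.9 and 97.0 CPM with the label WT and had 0 counts in both anti-Act1-labelled libraries, and Uty and Kdm5d likewise had 0 counts in both. Eif2s3y, at 67.6 and 73.1 CPM with the label WT, had 1 count and 0 counts. The sex of the mice and the label therefore cannot be told apart in any result below, and each direction rests on the labels.

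The cells carried macrophage transcripts in all libraries. The 9 macrophage markers summed to 25953 and 24994 CPM with the label WT and to 25683 and 26523 CPM with the label anti-Act1, led by Lyz2, the macrophage lysozyme, at a mean of 16873 CPM. Cd14 was higher and Mrc1, Mertk and Itgam lower with the label anti-Act1 by edgeR, and the other 5 were not called. That is 11.1% higher and 33.3% lower, against 10.9% and 9.76% of all tested genes. The 9 epithelial tumor cell markers summed to 0.464 and 0.343 against 0.389 and 0.128 CPM, with Cdh1 the most abundant at a mean of 0.258 CPM and with Krt8, Krt18, Krt20, Cldn4 and Esrp1 at 0 counts in every library. Transcripts that mark epithelial tumor cells were thus near or at 0.

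Markers of other cells were low as well. The 6 fibroblast markers summed to between 0.162 and 0.476 CPM over the libraries, with Dcn the most abundant and Lum at 0, and the 5 erythroid markers to between 0.290 and 0.632 CPM, with Klf1 the most abundant and Hba-a2, Hbb-bs and Hbb-bt at 0. The 8 neutrophil markers summed to 7.04 and 6.65 against 7.37 and 6.46 CPM, led by S100a8. Of 6 tested neutrophil markers, 1 (S100a8) was higher and 3 (S100a9, Ngp and Retnlg) were lower with the label anti-Act1. These are 16.7% higher and 50% lower, against 10.9% and 9.76% of all tested genes. The 6 dendritic cell markers summed to between 4.26 and 5.31 CPM, led by Clec9a, with none called, and the 5 B cell markers to between 2.91 and 4.03 CPM, led by Cd79b, with none called. Of the 6 T cell markers, 5 were found, and their sum of 25.6 and 25.2 against 27.3 and 31.0 CPM was nearly all Cd4, which had a log2 fold change of 0.21 (adjusted p = 0.0358, and 0.507 with 0.12 on the log2 scale without anti-Act1 replicate 2), while Cd3d, Cd3e, Cd3g and Cd8a were too low to be tested. The part of other cells in the results below was not tested. In bulk RNA, fewer cells of a type and less RNA per cell cannot be told apart.

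Promoter stretches are shown to let the letters of the motifs known for NRF2 and NF-κB be read in the genes themselves. Stretches of 80 or 90 bases upstream of the start of 5 of the genes were read from the RefSeq promoter table (GRCm38.p6, all on the plus strand). Capitals mark the match that each was chosen to show, and a match is a description, not a site. The stretch of Sod2 (chr17:13007719-13007798) holds a match to the NF-κB consensus. The stretches of Gclm (chr3:122245397-122245476) and Sod1 (chr16:90220672-90220751) hold the core of the antioxidant response element, TGACNNNGC or its reverse complement. In the stretch of Prdx1 (chr4:116685419-116685498) the capitals mark an NF-κB consensus match and then a core. In that of Srxn1 (chr2:152105404-152105493) they mark 2 matches to the AP-1 motif TGANTCA. The match nearer the start runs on as TGAGTCAgc, which departs from the core only in having G for C after TGA. That form was not searched for, so it is not counted as a core below.
Sod2: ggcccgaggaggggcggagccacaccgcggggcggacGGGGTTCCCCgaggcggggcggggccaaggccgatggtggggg
Gclm: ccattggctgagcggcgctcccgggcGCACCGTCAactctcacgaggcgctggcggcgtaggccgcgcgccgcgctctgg
Sod1: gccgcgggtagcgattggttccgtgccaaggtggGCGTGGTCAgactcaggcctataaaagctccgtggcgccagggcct
Prdx1: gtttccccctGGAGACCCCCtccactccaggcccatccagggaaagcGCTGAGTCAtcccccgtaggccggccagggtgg
Srxn1: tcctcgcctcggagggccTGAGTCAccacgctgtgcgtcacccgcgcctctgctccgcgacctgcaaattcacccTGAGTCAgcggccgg

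Both strands were searched, from 250 bases before the start to 50 after it, in the promoters of the 9 genes with an entry. Gclc has none in the table. The core stood in 6 of the 9 genes (Nfe2l2, Gclm, Txnrd1, Srxn1, Prdx1 and Sod1), or at 6 of their 11 starts, against 12.4% of the 32851 promoters of the table. Txnrd1 has 3 starts in the table and each other gene 1. That of Srxn1 lies after the start, outside the printed stretch. The NF-κB consensus stood in Sod2 and Prdx1, against 4.51% of all promoters, and the AP-1 motif in Srxn1 and Prdx1, against 7.81%. In Prdx1 one of the AP-1 matches lies within the core. No match says only that these letters are not in this window.

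Per gene length, the levels of the 10 genes spanned a wide range (FPKM, which divides by gene length and library total; 2 libraries a group). With the label WT, Prdx1 was highest at a mean of 500 FPKM, followed by Sod1 at 211, Nfe2l2 at 142, Srxn1 at 31.8, Sod2 at 27.7, Txnrd1 at 26.9, Gclm at 21.2, Gclc at 10.6, Slc7a11 at 4.32 and Nqo1 at 0.396 FPKM. In the anti-Act1-labelled libraries the order was the same except that Sod2, at 51.2 ± 0.860 FPKM (SD, n = 2), stood above Srxn1, at 43.0 ± 0.489 FPKM (SD, n = 2). No 2 neighbors in either order overlapped between their libraries. The closest were Sod2, at 27.6 and 27.7 FPKM, and Txnrd1, at 26.7 and 27.1 FPKM, with the label WT.

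**Figure D1:**
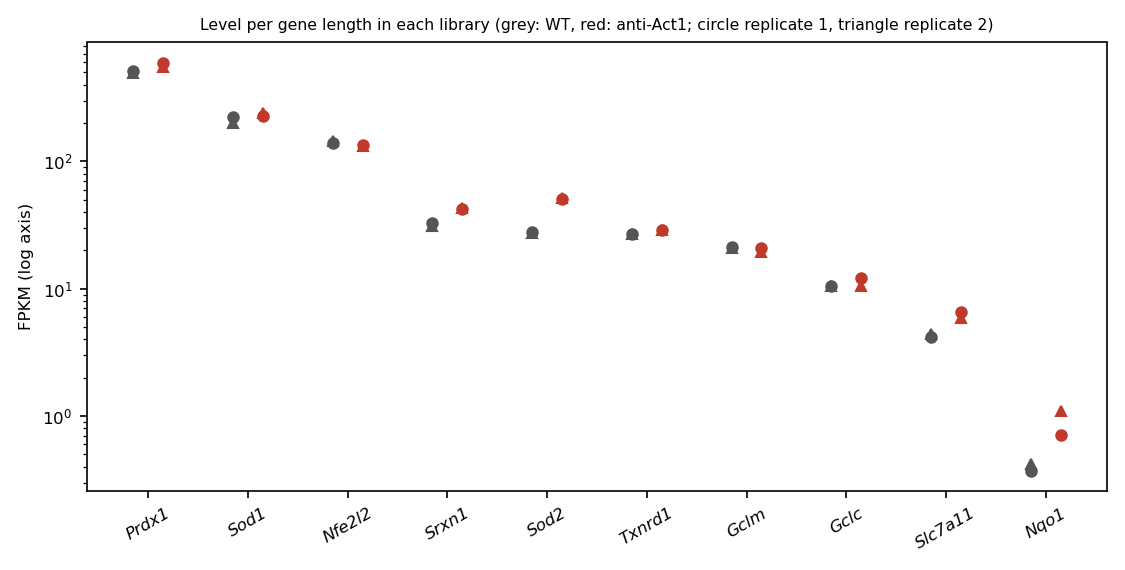
Level of each gene in FPKM (vertical log axis) in each of the 4 libraries, grey for the label WT and red for anti-Act1, circles for replicate 1 and triangles for replicate 2. Genes run from Prdx1 at 500 FPKM to Nqo1 at 0.396 FPKM (WT means), and Sod2 passes Srxn1 with the label anti-Act1.

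Across all genes, 12494 were tested with edgeR's quasi-likelihood test, and 1366 were higher (10.9%) and 1220 lower (9.76%) with the label anti-Act1 at an adjusted p under 0.05. Of the 10 genes, 6 were higher at that threshold (Sod2, Nqo1, Slc7a11, Srxn1, Prdx1 and Sod1), 0 were lower, and Nfe2l2, Gclc, Gclm and Txnrd1 were not called. Their median log2 fold change was 0.19, against −0.0046 over all tested genes. Both anti-Act1-labelled libraries stood above both WT-labelled ones for 8 of the 10 genes, which 28.4% of all tested genes did, and below them for Nfe2l2 alone, which 28.7% did. The groups overlapped for Gclm. With 2 libraries a group, no exact permutation test of one gene can reach a p below 0.33, so the p-values given come from the model across genes. They measure the spread between the libraries, which the study's methods call biological replicates.

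Sod2, the mitochondrial manganese superoxide dismutase, was at 105.4 and 104.4 CPM with the label WT and at 194.2 and 201.3 CPM with the label anti-Act1. The groups lay far apart and the libraries within each close together. The fold was 1.88 (95% interval 1.75 to 2.03), a log2 fold change of 0.91 (SE 0.052, adjusted p = 4.05e-19 in edgeR). Sod1, the cytosolic copper-zinc enzyme, was at 142.7 and 128.2 CPM with the label WT and at 146.5 and 157.7 CPM with the label anti-Act1. Its groups did not overlap, but WT replicate 1 came close to anti-Act1 replicate 1. The log2 fold change was 0.17 (SE 0.055, adjusted p = 0.0244 in edgeR). It was 0.091 without WT replicate 2 (adjusted p = 0.357) and 0.11 without anti-Act1 replicate 2 (adjusted p = 0.371), and without composition normalization it was 0.14 (adjusted p = 0.0822), so the call for Sod1 depends on these choices.

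Set against each other within each library, the enzymes changed places on the CPM scale. The log2 ratio of Sod2 to Sod1 was −0.44 and −0.30 with the label WT and 0.41 and 0.35 with the label anti-Act1. The difference of 0.75 went the same way for every pair of libraries from different groups (exact two-sided permutation p = 0.33, the smallest possible here). Per gene length Sod1 stayed the more abundant, at 7.99 and 7.25 times the FPKM of Sod2 with the label WT and at 4.45 and 4.62 times with the label anti-Act1.

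**Figure D2:**
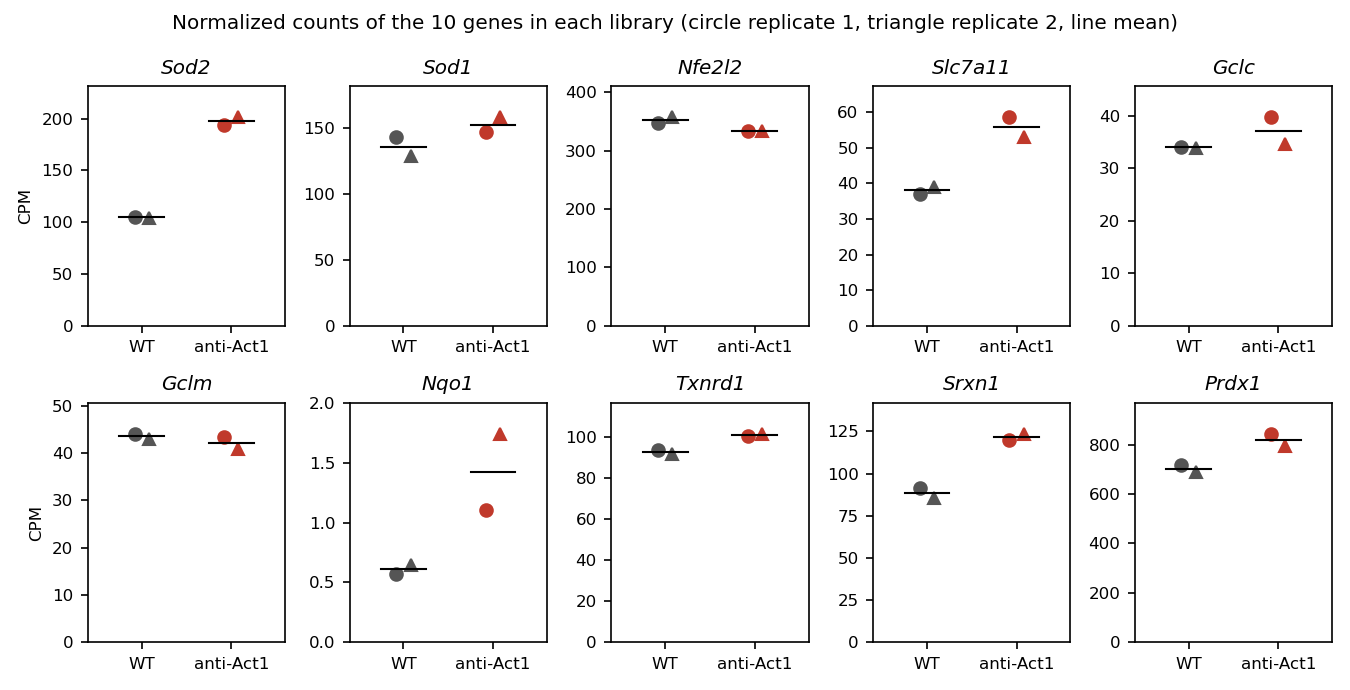
CPM of each of the 10 genes in each library (vertical axis from 0), grey for the label WT and red for anti-Act1, circles for replicate 1, triangles for replicate 2, lines for group means. Sod2 goes from 105.4 and 104.4 CPM to 194.2 and 201.3 CPM, while Gclm overlaps between the groups.

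Nfe2l2, the transcript of NRF2 itself, was at 347 and 357 CPM with the label WT and at 334 and 333 CPM with the label anti-Act1. Both anti-Act1-labelled libraries were slightly lower. The log2 fold change was −0.078 (SE 0.050, 95% interval −0.18 to 0.023, adjusted p = 0.306 in edgeR).

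Of the 3 targets that bring in cystine and make glutathione, 1 was called. Slc7a11, the cystine importer, was at 37.1 and 38.9 CPM with the label WT and at 58.6 and 53.0 CPM with the label anti-Act1. Both anti-Act1-labelled libraries were clearly higher, with a log2 fold change of 0.55 (SE 0.064, adjusted p = 1.91e-09 in edgeR). Gclc, the catalytic subunit of glutamate-cysteine ligase, which limits glutathione synthesis, was at 34.1 and 33.9 against 39.7 and 34.6 CPM. Only anti-Act1 replicate 1 stood well apart, and the log2 fold change of 0.13 (95% interval −0.0088 to 0.27, adjusted p = 0.194 in edgeR) was 0.027 without that library and 0.23 without anti-Act1 replicate 2. Gclm, the modifier subunit of the same enzyme, was at 44.0 and 43.0 against 43.3 and 40.9 CPM. Its groups overlapped (log2 fold change −0.046, 95% interval −0.17 to 0.081, adjusted p = 0.677 in edgeR), and leaving out anti-Act1 replicate 1 gave −0.087, anti-Act1 replicate 2 −0.0042 and WT replicate 1 −0.029.

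Nqo1, the quinone reductase that is the usual readout of NRF2, was barely detected, with 37 and 49 counts in the WT-labelled libraries and 68 and 95 counts in those labelled anti-Act1, or 0.573 and 0.646 against 1.10 and 1.74 CPM. Both anti-Act1-labelled libraries were higher, and they differed between themselves more than the WT pair did. The log2 fold change of 1.21 (SE 0.34, adjusted p = 0.00655 in edgeR) was the highest of the 10 genes but also the least precise, with a 95% interval of 0.53 to 1.89. It was 0.85 without anti-Act1 replicate 2 (adjusted p = 0.232) and 1.51 without anti-Act1 replicate 1 (adjusted p = 0.0026).

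Among the genes of thiol repair, Srxn1, the sulfiredoxin that restores overoxidized peroxiredoxins, was at 91.5 and 85.8 CPM with the label WT and at 120.2 and 123.6 CPM with the label anti-Act1. The gap between groups was wider than either pair's spread (log2 fold change 0.46, SE 0.054, adjusted p = 3.86e-09 in edgeR). Prdx1, the abundant cytosolic peroxiredoxin, was at 716 and 690 against 844 and 796 CPM. Both anti-Act1-labelled libraries were higher, with a log2 fold change of 0.22 (SE 0.050, adjusted p = 0.000801 in edgeR) that was 0.18 without anti-Act1 replicate 1 (adjusted p = 0.0521). Txnrd1, the cytosolic thioredoxin reductase, was at 93.4 and 91.7 against 100.2 and 101.5 CPM. Its groups did not overlap, but the log2 fold change of 0.12 (95% interval 0.016 to 0.23, adjusted p = 0.0973 in edgeR) missed the threshold. Prdx1 has a pseudogene, and Prdx1, Txnrd1 and Gclm overlap other RefSeq genes, so some of their reads could have been shared or split in counting. Of the overlapping genes, only Eid3, which overlaps Txnrd1, was in the count table. It had 70 counts summed over the libraries, beside 5543 to 6956 counts of Txnrd1 in each library.

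**Figure D3:**
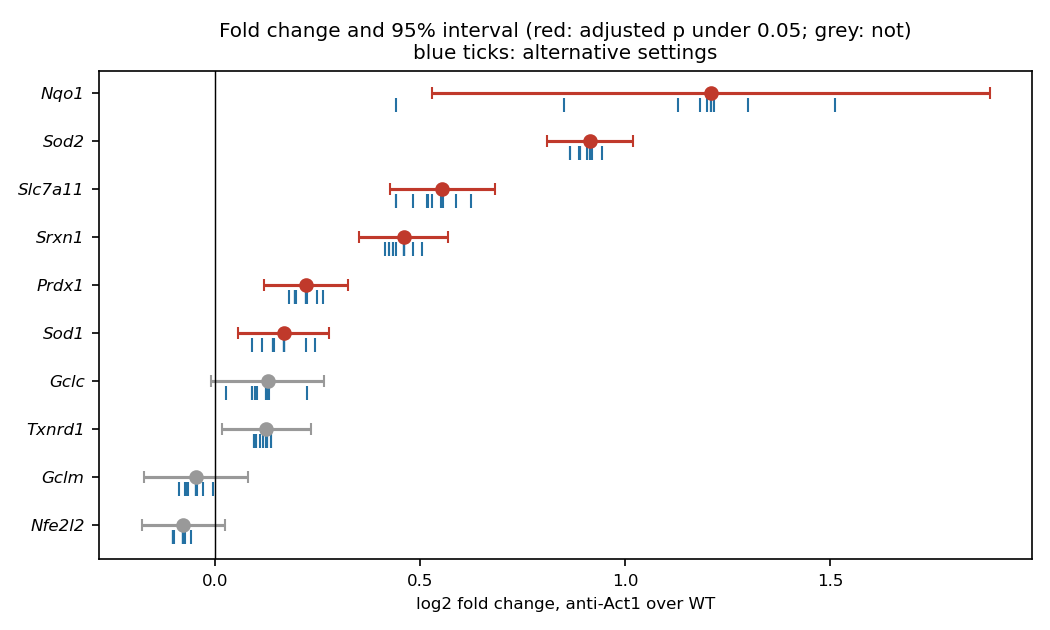
Log2 fold change of each gene, anti-Act1 over WT (horizontal axis), with its 95% interval, red where the edgeR adjusted p was under 0.05 and grey where not, and blue ticks for the alternative settings. Sod2 (0.91), Slc7a11 (0.55) and Srxn1 (0.46) lie clear of 0, and the interval of Nqo1 runs from 0.53 to 1.89.

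Genes whose levels over the 4 libraries were most like those of Sod2 were sought among tested genes of at least 10 CPM on average, by the distance between centred log2 CPM values. The nearest 5 of 8405 were Pdpn, Procr, Dio2, Cdkn1c and Selenbp1, at distances of 0.053 to 0.065. For Nqo1 they were Bzw2, Tnfrsf9, Nos2, Mmp9 and C3 out of 8406, at 0.36 to 0.45, so that Nqo1 had no comparably close neighbor among genes of that level. Nqo1 itself, at group means of 0.609 and 1.42 CPM, lay far below 10 CPM. Genes as low as Nqo1 were not compared, so its larger distances cannot be read as a pattern of its own. With 4 libraries in 2 groups, such likeness mostly restates the difference between the groups.

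The rest of the pathway was read from lists of known genes, some of them on more than one list. Of 13 regulators of NRF2, 4 were higher (30.8%, against 10.9% of all tested genes) and 1 lower (7.69%, against 9.76%), with a median log2 fold change of 0.085. Maff, a small MAF partner, was at 11.2 and 10.8 CPM with the label WT and at 24.0 and 23.3 CPM with the label anti-Act1. It was more than doubled, with a log2 fold change of 1.11 (SE 0.084, adjusted p = 9.21e-15 in edgeR). Sqstm1, the autophagy adaptor p62 that binds KEAP1, had a log2 fold change of 0.24 (adjusted p = 0.000318 in edgeR). Smaller differences lost their calls when single libraries were left out. Nfe2l1, a factor related to NRF2, had a log2 fold change of 0.19 (adjusted p = 0.00425), with adjusted p = 0.0589 when anti-Act1 replicate 1 was left out and 0.0523 when anti-Act1 replicate 2 was. Mafg, another small MAF, had 0.18 (adjusted p = 0.0103), and Bach1, a repressor at the same DNA elements, −0.16 (adjusted p = 0.0196). Both kept an adjusted p under 0.05 only when WT replicate 1 was the library left out, and without WT replicate 2, anti-Act1 replicate 1 or anti-Act1 replicate 2, in this order, the log2 fold changes were 0.14, 0.16 and 0.20 for Mafg and −0.12, −0.16 and −0.16 for Bach1. With either of the anti-Act1-labelled libraries left out, 2 genes of the list were higher and 0 lower. Keap1 was at 89.5 and 86.3 against 91.1 and 95.4 CPM (log2 fold change 0.085, adjusted p = 0.308 in edgeR, and 0.052 without anti-Act1 replicate 2).

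Of 29 tested genes among 31 other NRF2 targets, 13 were higher (44.8%, against 10.9% of all tested genes) and 2 lower (6.90%, against 9.76%), with a median log2 fold change of 0.18. Gpx2 was at 0 in every library and Aldh3a1 was too low to be tested. Hmox1, heme oxygenase, was at 694 and 669 CPM with the label WT and at 953 and 959 CPM with the label anti-Act1. The groups were far apart relative to their spread, with a log2 fold change of 0.49 (SE 0.050, adjusted p = 7.08e-11 in edgeR). Ugdh, which makes the substrate for glucuronidation, had 0.52 (adjusted p = 7.34e-11), the glutathione transferase Gstm1 0.44 (adjusted p = 7.17e-09) and the thioredoxin Txn1 0.40 (adjusted p = 1.13e-07). Gstp1, another glutathione transferase, had 0.45 (adjusted p = 0.00326), but 0.22 without WT replicate 2 (adjusted p = 0.228), 0.29 without anti-Act1 replicate 2 (adjusted p = 0.126) and 0.70 without WT replicate 1. Gsr, glutathione reductase, overlapped between the groups at 142 and 148 against 152 and 147 CPM (log2 fold change 0.037, adjusted p = 0.692 in edgeR), with 0.0068 to 0.066 when 1 library was left out. The 2 lower genes were G6pdx, the X-linked enzyme that opens the pentose phosphate pathway (log2 fold change −0.21, adjusted p = 0.00408, and −0.16 with adjusted p = 0.18 without anti-Act1 replicate 1), and Osgin1, named after its values were seen (−0.26, adjusted p = 0.015). Osgin1 had adjusted p = 0.108, 0.147 and 0.0501 when WT replicate 1, anti-Act1 replicate 1 or anti-Act1 replicate 2 was left out, with −0.21, −0.23 and −0.28.

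The counts for the glutathione enzymes, thioredoxin system, peroxide handling and NADPH supply stand beside the 10.9% of all tested genes that were higher and the 9.76% that were lower. Of 26 tested glutathione enzymes among 32, 6 were higher (23.1%) and 1 lower (median log2 fold change 0.11), with the microsomal transferase Mgst2 at 0.46 (adjusted p = 0.00117 in edgeR, and 0.0563 with limma on unfiltered FPKM) and the secreted peroxidase Gpx3 lower at −0.41 (adjusted p = 3.77e-05). Of 19 tested thioredoxin and peroxiredoxin genes among 20, 8 were higher (42.1%) and 1 lower (median 0.093). The peroxiredoxins Prdx6 and Prdx5 had log2 fold changes of 0.40 (adjusted p = 3.64e-08) and 0.35 (adjusted p = 6.24e-07, and 0.0611 for Prdx5 with limma on unfiltered FPKM), and the lower gene was Sesn1, a sestrin induced by p53, at −0.59 (adjusted p = 2.84e-11). When anti-Act1 replicate 1 was left out, 5 genes of the thioredoxin list were higher and 2 of the glutathione list lower.

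Of 9 tested genes of superoxide and peroxide handling among 10, 2 were higher (22.2%) and 1 lower (11.1%; median 0.083). Gpx4, the lipid peroxidase, had 0.24 (adjusted p = 0.000439 in edgeR, and 0.0895 with limma on unfiltered FPKM). Pon2 had 0.15 (adjusted p = 0.0318), and the adjusted p rose to between 0.0551 and 0.207 with any one of the 4 libraries left out. The mitochondrial uncoupler Ucp2 had −0.19 (adjusted p = 0.0059) and −0.11 without anti-Act1 replicate 1 (adjusted p = 0.353). Catalase, Cat, was at 126 and 130 against 128 and 139 CPM (log2 fold change 0.059, adjusted p = 0.502), and leaving out anti-Act1 replicate 2 gave 0.00074, WT replicate 1 0.033 and anti-Act1 replicate 1 0.12. Gpx1, the main cytosolic peroxidase, had 0.11 (adjusted p = 0.128), with 0.16 without WT replicate 1 (adjusted p = 0.0241), 0.057 without WT replicate 2 and 0.062 without anti-Act1 replicate 2. Of these 3 peroxide-removing enzymes, Gpx4 alone was called in the fit on all libraries. Of 12 NADPH supply genes, 2 were higher (16.7%) and 1, G6pdx, lower (8.33%; median 0.080), which is near the shares over all tested genes. Pgls, of the pentose phosphate pathway, had 0.20 (adjusted p = 0.00654; 0.0774 without WT replicate 2 and 0.159 without anti-Act1 replicate 1) and the NAD kinase Nadk 0.20 (adjusted p = 0.00325; 0.113 without anti-Act1 replicate 2). Nnt, the mitochondrial transhydrogenase, was at −0.18 (adjusted p = 0.157). With 1 library left out, the lists for peroxide handling and for NADPH supply had 1 or 2 genes higher.

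Sod2 and Slc7a11 were also set beside the genes of the other factors that are known to induce them. Of 30 tested NF-κB induced genes among 31, 24 were higher (80%, against 10.9% of all tested genes) and 0 lower (against 9.76%). Their median log2 fold change was 0.57, and that of Sod2 was 0.91. Nos2, the inducible nitric oxide synthase, was at 69.0 and 69.9 CPM with the label WT and at 168 and 183 CPM with the label anti-Act1 (log2 fold change 1.34, adjusted p = 1.07e-24 in edgeR). The chemokines Cxcl3 and Cxcl1 had log2 fold changes of 1.75 and 1.46, the cytokine Il1a 1.35 and the inhibitor Nfkbia 0.71 (adjusted p = 9.21e-15). Of 27 tested targets of ATF4, the factor of the amino acid response that also induces Slc7a11, 16 were higher (59.3%) and 1 lower (3.70%), with a median of 0.49 beside the 0.55 of Slc7a11. The lower gene, Psat1 of serine synthesis, was named after its values were seen (log2 fold change −0.47, adjusted p = 0.0402) and had −0.27 without WT replicate 1 (adjusted p = 0.427), −0.36 without anti-Act1 replicate 2 (adjusted p = 0.239) and −0.47 in DESeq2 (adjusted p = 0.134). Vldlr had a log2 fold change of 1.17, the pseudokinase Trib3 0.90 and the asparagine synthetase Asns 0.87 (adjusted p = 4.98e-06). With limma on log2(FPKM + 1), Vldlr was at 0.69 and was still called. The amino acid transporter Slc7a5 had 0.74 (adjusted p = 0.0163), but 0.41 without WT replicate 1 (adjusted p = 0.303), 0.68 without anti-Act1 replicate 2 (adjusted p = 0.079) and 1.21 without WT replicate 2. These lists were chosen with earlier results of the same libraries known, and no test compared them with one another.

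**Figure D4:**
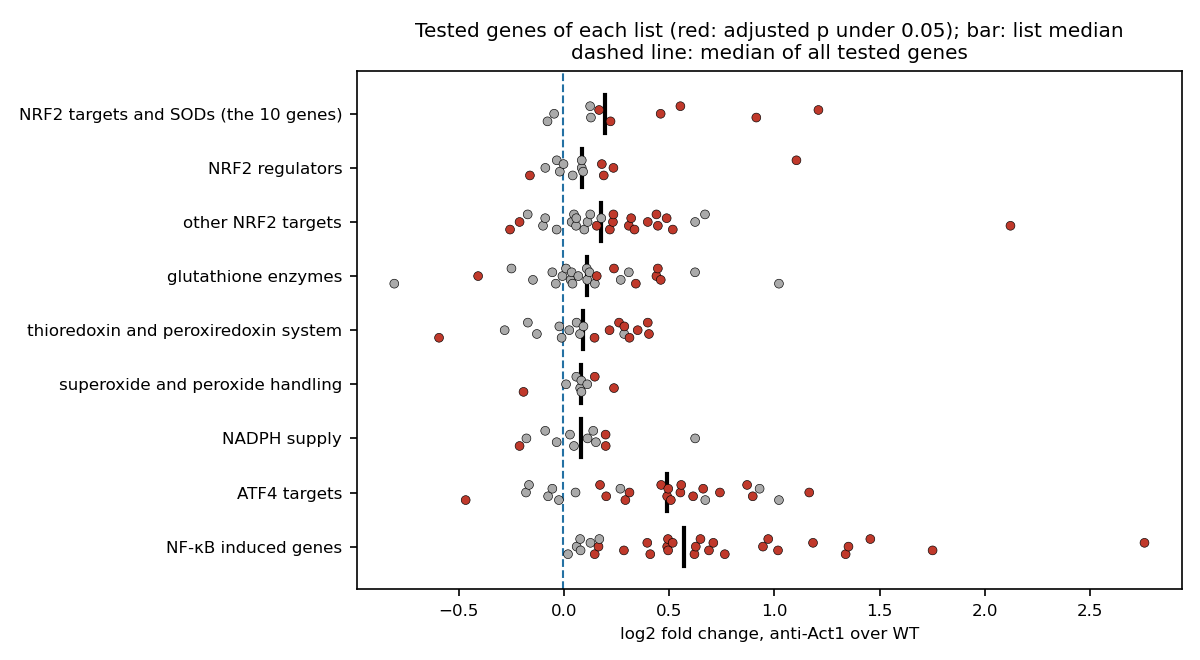
Log2 fold change, anti-Act1 over WT (horizontal axis), of each tested gene of each list, red where the edgeR adjusted p was under 0.05, with black bars for list medians and a dashed line for the median of all tested genes. The medians run from 0.080 for NADPH supply to 0.57 for NF-κB induced genes.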

How the data were processed

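The authors deposited whole counts of reads per gene, without normalization, and FPKM values. In 100% of the 10311 genes with at least 100 counts in each library, the deposited FPKM equalled the counts divided by library total and one gene length, within 1%. The submitters' processing notes name Bowtie 0.12.2, HTSeq 0.6.1 and the builds mm8 and mm10 with no role, while the paper's methods name another aligner. The build behind the counts was therefore not settled, and no coordinates of counted genes are given.

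Counts were fitted with edgeR 4.0.16 (R 4.3.3) after filterByExpr and TMM scaling, with condition as the single term, by the quasi-likelihood F test (two-sided), with Benjamini-Hochberg adjustment over 12494 genes. CPM were TMM-scaled. Standard errors and 95% intervals came from the same fit. Depth was 55435063 to 75062945 counts per library. Alternatives were DESeq2 1.42.0, DESeq2 size factors in edgeR, edgeR without composition normalization, the unfiltered table, a minimum of 10 counts per library, the replicate block, limma 3.58.1 on log2(FPKM + 1) or log2(FPKM + 0.1) with an FPKM filter of 1, the former unfiltered, and omission of each library in turn. The edgeR, DESeq2 and limma fits were tested on simulated data.

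The members and the lists were chosen with earlier results of these data known. Named from each list were up to 4 called genes with a mean of at least 1 CPM and the largest absolute log2 fold change, besides genes named whatever their values (Keap1, Bach1, Mafg, Hmox1, Gsr, G6pdx, Txn1, Cat, Gpx1, Prdx6, Nnt and Nfkbia). Promoters came from RefSeq (GRCm38.p6). Some marker genes are not reported here and were left out of their lists. Other assays of the paper were not analysed here.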

Additional observations from a re-analysis of the deposited data

How the results depend on the processing

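Over 13 alternatives none of the 10 genes changed sign. The median over all tested genes, −0.0046, ranged from −0.031 with limma on log2(FPKM + 0.1) to 0.0019 without WT replicate 1, and was −0.030 without composition normalization. The alternatives were not read for Traf3ip2 or for cell type markers other than Cd4. Sod2, Slc7a11 and Srxn1 were called higher under all 13, and Sod2 ranged from 0.87 to 0.94 on the log2 scale. Nfe2l2, Gclc, Gclm and Txnrd1 were called under none. Limma on log2(FPKM + 1) without a filter called 583 genes higher, 509 lower and 3 of the 10 genes higher, with log2 fold changes of 0.44 for Nqo1 and 0.20 for Prdx1, neither past the threshold. Among the other named genes, that fit also lost the calls for Nfe2l1, Mafg, Bach1, Gstp1, Mgst2, Prdx5, Gpx4, Ucp2, Pon2, G6pdx, Pgls, Nadk, Osgin1, Slc7a5, Psat1 and Cd4. Both filtered limma fits lost Mafg, Pon2, Psat1 and Cd4, DESeq2 lost Slc7a5, Psat1 and Cd4, the fit without composition normalization lost Pon2 and Cd4, and limma on log2(FPKM + 0.1) also lost Gstp1. Limma on log2(FPKM + 0.1) called 910 genes higher. Sod1 was at 0.14 and not called without composition normalization and with all 3 limma fits. With 1 library left out, genes called higher numbered 930 to 1335 and lower 741 to 1208, members called higher 4 to 6, and log2 fold changes were 0.85 to 1.51 for Nqo1, 0.18 to 0.26 for Prdx1 and 0.091 to 0.24 for Sod1. The lone library of a group was then assumed to vary like the other pair. DESeq2 called 2098 genes, 2082 of them among the 2586 of edgeR. Nqo1 did not pass the FPKM filter, so 11 alternatives gave it a value. List counts of higher genes ranged from 2 to 4 for NRF2 regulators, 3 to 8 for glutathione enzymes, 4 to 8 for the thioredoxin system and 0 to 2 for peroxide handling and for NADPH supply. With the replicate number as a block, 6 of the 10 genes were higher and 0 lower, with Sod2 at 0.91, and Pon2 lost its call (adjusted p = 0.0675). Same-numbered libraries did not deviate together (r = −0.030 across 12494 genes, which are not independent). With 2 libraries a group this is a single correlation, and it cannot settle whether those libraries shared a source. Depth limits Nqo1 most, at 37 to 95 counts a library.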
